A study of Mus musculus with 8 samples.

Results

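The comparison described here is that of mutant with wildtype mice in colon that had received no treatment, made separately in T cells, macrophages and fibroblasts. Droplet single-cell RNA sequencing was used to count transcripts of colonic lamina propria cells, the cells of the connective tissue under the gut epithelium, as unique molecular identifiers (UMIs), each standing for 1 captured RNA molecule. All barcodes of the 4 untreated libraries with at least 400 genes and under 20% mitochondrial UMIs were used, which kept 46772 of 48677 barcodes. The whole series of 8 libraries, the other 4 of which came from mice given dextran sulfate sodium (DSS), held 96721 such barcodes of 100673. A barcode was taken as a T cell if it held at least 2 UMIs of Cd3e, Cd3d, Cd3g, Trac and Trbc2 together, as a macrophage with at least 10 UMIs of C1qa, C1qb and C1qc, and as a fibroblast with at least 20 UMIs of Col1a1, Col1a2, Col3a1 and Dcn. These rules found 27206 T cells, 4896 macrophages and 6703 fibroblasts.

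The 2 untreated wildtype and 2 untreated mutant libraries came from C57BL/6 mice of 10 to 12 weeks, kept free of specific pathogens on a normal diet. They drank plain water and were taken on day 10, the day on which the DSS mice (2% DSS for 7 days, then plain water for 3 days) were taken. Colon pieces were digested with collagenase, DNase and dispase, cells were purified on Percoll, and CD4 cells were enriched with a magnetic kit before 3' libraries were made. Macrophages and fibroblasts in these libraries are therefore cells that passed through an enrichment for T cells. The series text describes 2 independent biological replicates per condition and the titles carry 1 animal number each. The labels do not say whether the wildtype mice were littermates of the mutants.

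T helper 17 (Th17) cells are CD4 T cells that settle in the gut wall and make the cytokines encoded by Il17a, Il17f and Il22. The receptor encoded by Il23r sustains them, and regulatory T cells, which depend on Foxp3, hold them in check. Their cytokines act on the epithelium, fibroblasts and myeloid cells around them.

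The titles give the mutant mice an amino acid substitution. UMI counts per gene do not read it, so the genotype of a library was taken from its title and could not be checked in the counts.

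Mutant replicate 1 stood apart from the other libraries in transcripts of the seminal vesicle and of epithelium. Svs5 and Svs4, which encode secreted proteins of the seminal vesicle, reached 6896 and 2306 CPM (UMIs per 1000000 UMIs of the same barcodes) in its barcodes that met none of the rules, and Svs5 reached 183 CPM in its T cells against at most 0.901 in T cells of the other untreated libraries. The 8 epithelial markers, all detected, summed to 588.7 CPM in its barcodes of no rule against 61.8 to 114.1 in the other untreated libraries, and to 42.3 against 6.15 to 7.75 in fibroblasts. The 4 untreated libraries held between 42052436 and 46372914 UMIs, and their kept barcodes had a median of 2248 to 3019 UMIs. Between 462 and 1026 barcodes per library met more than 1 rule and were counted in each class they met. Any pair of untreated libraries shared 28 to 46 barcode sequences. The 10 markers fixed for each class, none of them used in its rule, were all detected in that class. Summed over the 10, T cell markers reached 2083 to 2341 CPM in T cells and 237.6 to 543 in the other classes. The T cell class also held RNA of other cells. Its 5 plasma cell markers summed to 8468 to 14780 CPM, above its T cell markers, and its 10 fibroblast markers to 985 to 1532. With barcodes of 1 rule only, the plasma cell markers in T cells summed to 8963 to 17120.

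T cells made up 57.5% and 60.8% of kept barcodes in the wildtype libraries and 53.5% and 60.5% in the mutant libraries. The mean was 59.2% ± 2.35 (SD, n = 2) in wildtype and 57.0% ± 4.98 in mutant mice, and the groups overlapped. Macrophages took 12.0% and 11.4% of wildtype barcodes against 12.1% and 6.01% of mutant barcodes, a share that was low in mutant replicate 2 alone. Fibroblasts took 11.8% and 17.1% against 18.8% and 10.0%, with both mutant values outside the wildtype pair on opposite sides. With 2 libraries against 2 the smallest p an exact permutation test can give is 0.333, so these shares were not tested. Their 95% exact binomial intervals cover counting error only and were narrow, for example 52.5% to 54.4% for the T cells of mutant replicate 1.

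Genes were compared on the UMIs summed over the barcodes of a class in each library, with edgeR's quasi-likelihood test and Benjamini-Hochberg adjustment over all genes tested in that class. Genes with an adjusted p under 0.05 are called here. Levels are given in CPM of the class, in the order wildtype replicates 1 and 2, then mutant replicates 1 and 2. Fold changes are mutant over wildtype on the log2 scale with their standard error. In macrophages 14 of 11987 genes were called (0.117%), 8 higher (0.0667%) and 6 lower (0.0501%) in the mutant libraries, and 739 (6.17%) had an unadjusted p under 0.05. In T cells edgeR called 0 of 14292 genes (0%) and DESeq2 called 25. There 606 genes (4.24%) had an unadjusted p under 0.05, of which 361 (2.53%) were higher in the mutant libraries and 245 (1.71%) lower. In fibroblasts edgeR called 0 of 13637 genes (0%) and DESeq2 called 64, and 1193 genes (8.75%) had an unadjusted p under 0.05. The 3 classes come from the same 4 libraries, so they are not independent comparisons of the genotypes.

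The genes that rose in macrophages were 7 heat-shock genes and the chemokine gene Ccl3. Heat-shock proteins are chaperones that hold or refold damaged proteins, and their genes are switched on by heat shock factor 1 in heat, oxidative stress and other damage to proteins. Hspa1a, an inducible HSP70, stood at 450, 781, 4304 and 1974 CPM. Both mutant libraries lay above both wildtype libraries, and mutant replicate 1 was more than 2 times mutant replicate 2. The log2 fold change was 2.35 ± 0.32 (adjusted p = 0.012). Hspa1b, its near-identical neighbour, stood at 467.5, 705.5, 3238 and 1812 (2.11 ± 0.25, adjusted p = 0.00944). Reads of these neighbours may have been assigned to either gene, so each value is uncertain on its own.

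Of the 22 members of the heat-shock list 5 others were called. Hsph1, which releases nucleotide from HSP70, stood at 403.9, 582.4, 1178 and 1538 CPM (1.47 ± 0.21, adjusted p = 0.0127). Bag3, a co-chaperone that links HSP70 to autophagy, stood at 145.4, 204.1, 524.5 and 429.6 (1.46 ± 0.19, adjusted p = 0.0105). Dnajb1, the HSP40 that hands clients to HSP70, stood at 204.7, 387.7, 837.4 and 805.8 (1.48 ± 0.24, adjusted p = 0.0398). In these genes the groups did not overlap, and mutant replicate 1 was the highest library for Bag3 and Dnajb1 but not for Hsph1. Hspb1, a small heat-shock protein, stood at 90.3, 117.3, 239.7 and 328.7 (1.46 ± 0.20, adjusted p = 0.012). Hspd1, the mitochondrial HSP60, stood at 297.5, 438.9, 767.6 and 1023 (1.29 ± 0.21, adjusted p = 0.0398). For both, mutant replicate 2 was the highest. The call of Hspd1 was lost with barcodes of 1 rule only (adjusted p = 0.0659) and with the macrophage rule set at 20 UMIs (adjusted p = 0.0974). That of Dnajb1 was lost under the latter rule (adjusted p = 0.0978) and in DESeq2 (adjusted p = 0.1215). With mutant replicate 1 left out, 12 of the 22 list members were called in macrophages, against 0.776% of all genes in that fit. With mutant replicate 2 left out 9 were called, against 1.61%.

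**Figure D1:**
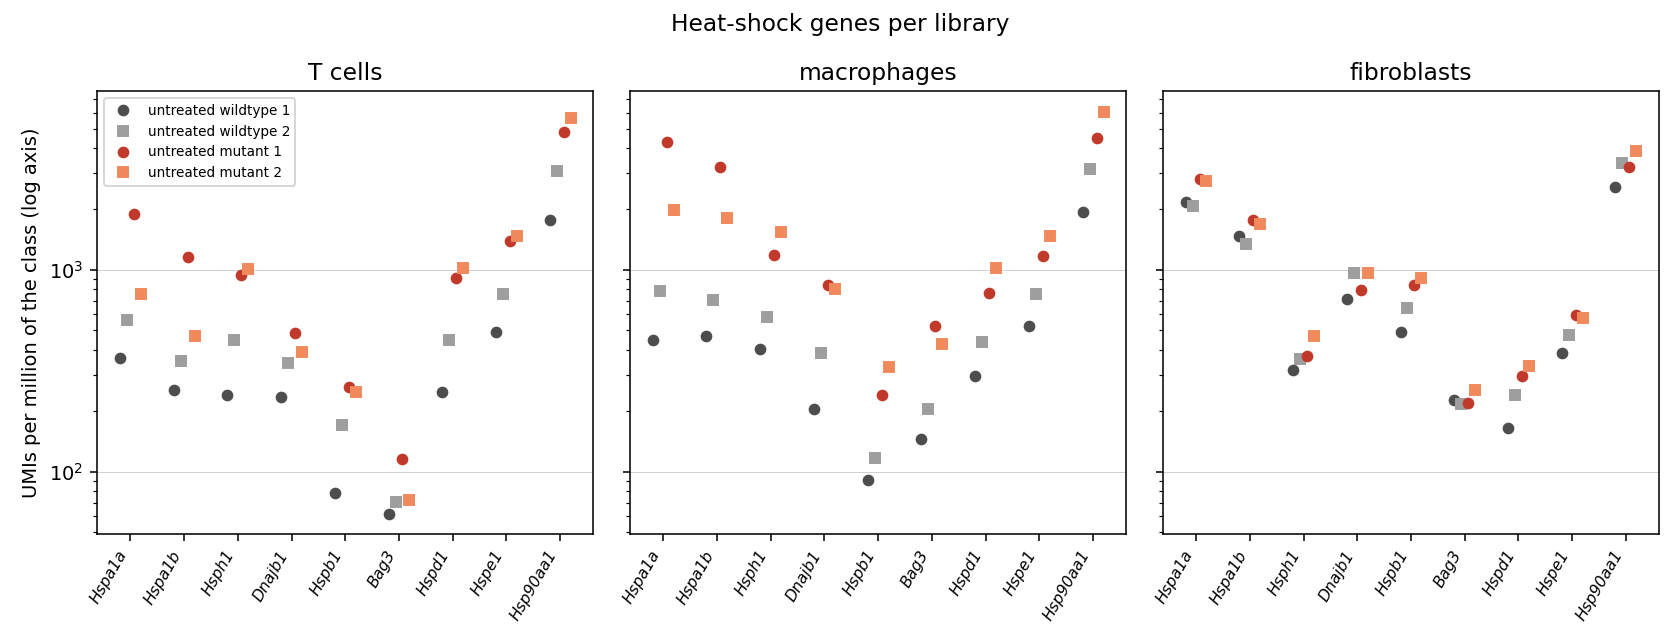
CPM of the class (log axis) of 9 heat-shock genes in each untreated library, with 1 panel per class. In T cells and macrophages each gene has both mutant libraries (red, orange) above both wildtype libraries (grey), while in fibroblasts Dnajb1, Bag3 and Hsp90aa1 overlap.

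Heat shock factor 1 binds arrays of the pentamer GAA and its reverse complement TTC in alternating orientation, and stretches of promoters are shown for 5 genes of the list that carry such pairs. The letters searched were GAANNTTC and TTCNNGAA, each its own reverse complement and so read on both strands, in 250 bases before to 50 bases after each RefSeq start site (GRCm38.p6). Capitals mark the matches, and the sequences run 5′ to 3′ along the strand of the gene.
Hspa1a, chr17:34972241-34972340, minus strand: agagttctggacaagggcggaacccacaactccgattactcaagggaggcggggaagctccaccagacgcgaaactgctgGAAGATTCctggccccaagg
Hspa1b, chr17:34959323-34959422, minus strand: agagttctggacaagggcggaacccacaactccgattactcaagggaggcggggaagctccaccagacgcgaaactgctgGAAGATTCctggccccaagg
Hsph1, chr5:149636350-149636449, minus strand: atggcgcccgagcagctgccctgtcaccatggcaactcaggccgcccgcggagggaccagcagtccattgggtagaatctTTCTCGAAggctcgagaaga
Hspb1, chr5:135887742-135887841, plus strand: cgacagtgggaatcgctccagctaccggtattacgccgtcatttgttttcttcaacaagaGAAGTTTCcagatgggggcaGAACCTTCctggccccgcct
Hspe1, chr1:55087989-55088088, plus strand: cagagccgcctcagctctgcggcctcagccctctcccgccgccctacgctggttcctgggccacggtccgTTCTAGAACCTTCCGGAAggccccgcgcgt
The Hspa1a and Hspa1b stretches are the same base for base. In Hspe1 3 matches overlap to form 1 longer array. Of the 22 list members 17 were in the promoter table and 10 of these held a match at 1 start site or more. Counted per start site, 11 of their 23 held a match. Of all 32851 promoters listed, 1 per start site, 15.1% held a match, 7.86% GAANNTTC and 8.52% TTCNNGAA. A match describes letters and not a bound site. Of the 7 members without a match, Dnajb1 rose in macrophages all the same.

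The heat-shock and chaperone list was also high in the mutant T cells, without a call for any member by edgeR. Of its 22 members, 18 had both mutant libraries above both wildtype libraries, against 15% of all T cell genes, and 0 lay the other way. An unadjusted p under 0.05 with a higher level was found for 17 of the 22, against 2.53% of all genes, and the median log2 fold change was 0.72 against 0.00 for all genes, with no member called. Hsph1 stood at 239.6, 447.9, 935.4 and 1009 CPM (1.52 ± 0.25, adjusted p = 0.55). Hspe1, the HSP10 partner of Hspd1, stood at 492.7, 753.8, 1386 and 1466 (1.21 ± 0.19, adjusted p = 0.55). Hsp90aa1, the inducible HSP90, stood at 1770, 3083, 4783 and 5663 (1.13 ± 0.24, adjusted p = 0.638). The groups did not overlap in these genes, and wildtype replicate 2 lay between wildtype replicate 1 and the mutant libraries in each. DESeq2 called 7 members in T cells, against 0.199% of all genes. The list median was 0.73 without mutant replicate 1 and 0.71 without mutant replicate 2. It was 0.89 without wildtype replicate 2 and lowest, at 0.57, without wildtype replicate 1. In each of these fits 1 library stands for a group.

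In macrophages 19 of the 22 members did not overlap and were higher in the mutant, against 17.2% of all genes, and the median log2 fold change was 0.77 against 0.01. An unadjusted p under 0.05 was found for 16, against 3.57% of all genes. Hspa4, Hsf1, the gene of heat shock factor 1 itself, and Serpinh1, a collagen chaperone, overlapped. In fibroblasts 12 of 22 were higher without overlap, against 28.4% of all genes, 5 had an unadjusted p under 0.05, against 2.84%, and the median was 0.16 against 0.00. Hspa1a in fibroblasts stood at 2164, 2060, 2806 and 2735 (0.32 ± 0.11, adjusted p = 0.402). Its wildtype level in fibroblasts was above that of either wildtype library in macrophages. Hspb1 stood at 491.1, 643.6, 838.1 and 907.5 in fibroblasts (0.55 ± 0.14, adjusted p = 0.274), and Dnajb1 at 712, 967, 790 and 960, where the groups overlapped (−0.01). With barcodes that met 1 rule only, the fibroblast median was −0.04.

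The difference between classes was tested as an interaction over the 12 sums with library as a block. Between macrophages and fibroblasts 2 of 14439 genes were called by edgeR (0.0139%), Dnajb1 and Chka, and 1262 (8.74%) had an unadjusted p under 0.05. The effect on Dnajb1 was lower in fibroblasts by 1.52 on the log2 scale (−1.52 ± 0.19, adjusted p = 0.049). Chka, choline kinase alpha, stood at 67.1, 69.9, 125 and 124.1 in macrophages and at 143.2, 121.7, 106 and 119.1 in fibroblasts (−1.16 ± 0.13, adjusted p = 0.0272). It was thus higher in both mutant libraries in macrophages and lower in both in fibroblasts. Both calls were lost when wildtype replicate 1 was left out (adjusted p = 0.125 for Chka and 0.146 for Dnajb1) and when wildtype replicate 2 was (adjusted p = 0.0602 for both), and Chka was also not called without mutant replicate 1 (adjusted p = 0.0579). Between T cells and fibroblasts edgeR called 0 of 14439 genes (0%), and 1261 (8.73%) had an unadjusted p under 0.05. The smallest p there belonged to Hsp90aa1 (−0.997, adjusted p = 0.0908), with Hsph1 (−1.36) and Hspd1 (−0.96) next. Between T cells and macrophages edgeR called 0 of 14439 (0%), and 1055 (7.31%) had an unadjusted p under 0.05. The smallest p there belonged to the chemokine gene Cxcl3 (−1.43, adjusted p = 0.109). DESeq2 was not run on these interactions.

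The share of a barcode's UMIs that came from the 22 heat-shock genes was examined over barcodes, since a sum can rise through few cells. In T cells the median share was 0.859% and 1.27% in wildtype and 1.95% and 2.16% in mutant libraries. In macrophages it was 0.824% and 1.24% against 2.08% and 2.49%, and in fibroblasts 1.43% and 1.74% against 1.67% and 2.00%. The median barcode was thus higher in both mutant libraries in T cells and macrophages, and the fibroblast groups overlapped. Barcodes with at least 2% made up 5.35% and 21.3% of wildtype and 48.4% and 55.5% of mutant T cells, and 9.47% and 24.1% against 51.3% and 65.1% of macrophages. In barcodes that met none of the rules the summed share was also higher in both mutant libraries, at 0.938% and 1.27% in wildtype and 2.08% and 1.79% in mutant libraries, with mutant replicate 1 the highest there. In the DSS libraries the summed share was 1.16% ± 0.173 in wildtype and 1.17% ± 0.0336 in mutant T cells, and 1.13% ± 0.444 and 0.972% ± 0.0540 in macrophages (SD, n = 2 each). The untreated means were 1.30% ± 0.334 and 2.43% ± 0.0223 in T cells and 1.32% ± 0.343 and 2.86% ± 0.143 in macrophages.

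**Figure D2:**
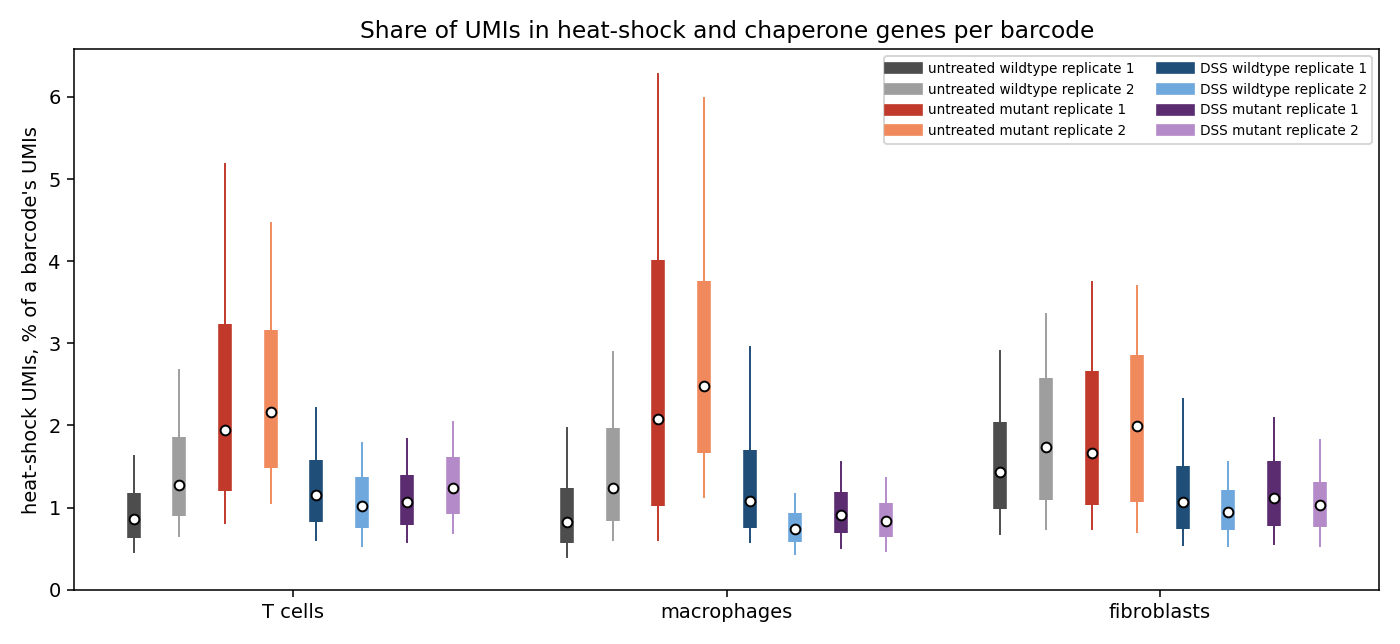
Share of each barcode's UMIs in the 22 heat-shock and chaperone genes, in percent, for each class and all 8 libraries. Circles are medians, thick bars run between the quartiles and thin lines from the 10th to the 90th percentile of barcodes; the medians of the untreated mutant T cells (1.95% and 2.16%) and macrophages (2.08% and 2.49%) lie above those of every other library of their class.

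Ccl3, a chemokine that draws monocytes and T cells, stood at 105.2, 116.8, 201.3 and 225 CPM in macrophages (0.95 ± 0.16, adjusted p = 0.0463). Both mutant libraries were close to each other and above the wildtype pair. The call was lost with the other scaling tried in edgeR (adjusted p = 0.0646), with barcodes of 1 rule only (adjusted p = 0.0876) and with the macrophage rule set at 20 UMIs (adjusted p = 0.112). Of the 20 members of the NF-kB and inflammatory cytokine list Ccl3 was the only call in macrophages, and the list's median was −0.18. That median ranged from −0.46 to 0.06 when 1 library was left out. Ccl4, its neighbour in sequence and function, overlapped at 586, 618.6, 530.3 and 988.6. Ptgs2, the inducible cyclooxygenase, stood at 307.5, 203.3, 160 and 155.7 (−0.68, adjusted p = 0.459) and was not called.

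The 6 genes that fell in macrophages were 4 immunoglobulin genes, Cnn1 of smooth muscle and the noncoding RNA Meg3. Iglc1 and Iglc2, constant regions of the immunoglobulin lambda light chain, are made by B and plasma cells. Iglc1 stood at 401.3, 296.7, 95.2 and 66.0 (−2.10 ± 0.20, adjusted p = 0.00158) and Iglc2 at 114.5, 290.9, 31.4 and 34.4 (−2.62 ± 0.34, adjusted p = 0.0105). The lower level of Iglc2 was not particular to macrophages. It was also lower in both mutant libraries in T cells (64.8, 130.3, 36.2 and 32.0) and in barcodes of no rule (1019, 1285, 497.1 and 449.9). In fibroblasts its groups overlapped (24.0, 172, 26.5 and 19.2). Iglv1, a lambda variable segment, stood at 14.5, 22.8, 6.49 and 5.62 (−1.60 ± 0.27, adjusted p = 0.0446). Igkv3-10, a kappa variable segment, had 17 and 35 UMIs in the wildtype libraries and none in the mutant libraries. Set against a floor of 3 counts over both mutant libraries, it was at least 13.7-fold lower. The 5 plasma cell markers, all detected and Iglc1 among them, summed to 13910 and 12690 in wildtype against 8066 and 8139 in mutant macrophages. In barcodes of no class they summed to between 88030 and 176800 CPM, highest in mutant replicate 2. A lower level in such a sum can come from fewer barcodes that hold the RNA or from less RNA in each, and these were not counted apart. The part of plasma cell RNA in these calls was not tested. With barcodes that met only the macrophage rule, Iglc1 stood at 555.1, 84.9, 133.2 and 79.1, so that the groups overlapped (adjusted p = 0.432), and Iglc2 (adjusted p = 0.469) and Iglv1 (adjusted p = 0.274) were also no longer called. Igkv3-10 was still called there (adjusted p = 0.0309).

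Cnn1, calponin of smooth muscle, stood at 24.0, 22.7, 6.00 and 0.936 in macrophages (−2.53 ± 0.38, adjusted p = 0.0263). All 10 members of the contractile list were lower in both mutant libraries than in both wildtype libraries, against 16.9% of all genes. An unadjusted p under 0.05 was found for 9 of the 10, against 2.59% of all genes, and their median was −1.22 against 0.01. Des, the intermediate filament desmin, stood at 43.8, 50.8, 17.2 and 3.75 and missed the threshold (−2.05 ± 0.37, adjusted p = 0.0654). Actg2, enteric smooth muscle actin, stood at 38.2, 86.2, 17.7 and 2.58 (−2.47 ± 0.49, adjusted p = 0.107). Mutant replicate 2 was the lowest library for these genes. The 4 smooth muscle markers, all detected, summed to 167.4, 229.9, 73.9 and 13.6 in macrophages and to 1387, 997.1, 2207 and 247.4 in barcodes of no class, where mutant replicate 1 was the highest and mutant replicate 2 the lowest. In fibroblasts the same list had a median of 0.31, with 7 of 10 members higher without overlap, against 28.4% of all genes, and no call. This fibroblast median ranged from 0.10 to 0.63 when 1 library was left out. The part of smooth muscle cells in the macrophage values was not tested. With the macrophage rule set at 20 UMIs the call of Cnn1 was lost (−0.99, adjusted p = 0.879) and the list median was −0.45. With barcodes of 1 rule only the list median in macrophages was −1.98, and leaving out 1 library gave −2.47 to −0.92. Meg3, a long noncoding RNA, stood at 54.7, 77.6, 29.5 and 17.1 (−1.47 ± 0.24, adjusted p = 0.0398). It stood between 1.44 and 6.88 in all libraries once barcodes that also met another rule were left out (adjusted p = 0.359).

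**Figure D3:**
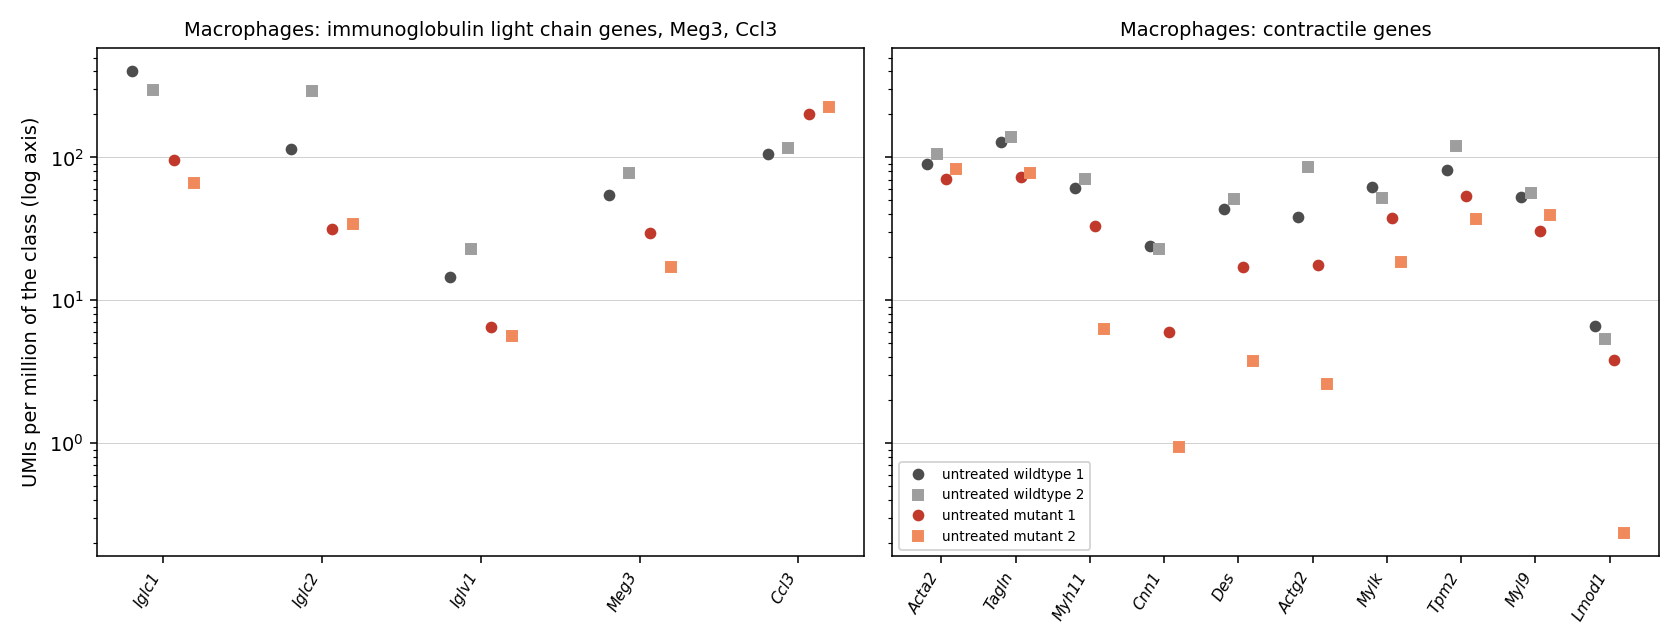
CPM of macrophages (log axis) in each untreated library for the called light chain genes, Meg3 and Ccl3 (left) and for the 10 contractile genes (right). Each gene shown has the wildtype and the mutant pair apart; in the right panel mutant replicate 2 lies lowest for 7 of 10 genes.

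The macrophage calls hold for a fit of the 4 untreated libraries. With all 8 libraries in 1 fit, which shares 1 estimate of the spread with the DSS libraries, 0 of the 14 were called. For the 13 with a mean of at least 5 CPM in a group the adjusted p was 1, while Hspa1a, for example, had a log2 fold change of 2.33 there and Iglc1 one of −2.12. Of the 14, 8 were called with barcodes of 1 rule only by edgeR, among them Hspa1a (2.67 ± 0.34, adjusted p = 0.00499), Hspb1 (1.86 ± 0.23, adjusted p = 0.0047) and Cnn1 (−2.99 ± 0.37, adjusted p = 0.0047).

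Genes of macrophage identity did not pass the test. Of the 20 members of that list 7 were higher and 2 lower without overlap, against 17.2% and 16.9% of all genes, and the median was 0.03. Cx3cr1, the fractalkine receptor of resident gut macrophages, stood at 133.5, 142.5, 328.3 and 156.8 (0.82 ± 0.25, adjusted p = 0.544), high in mutant replicate 1. Of 10 MHC class II genes 1 did not overlap between the groups, against 34.1% of all genes. The proliferation list had a median of 0.38, with 7 of 14 members higher without overlap, against 17.2% of all genes, and 3 at an unadjusted p under 0.05, against 3.57%. Top2a, the topoisomerase of dividing cells, stood at 36.4, 31.9, 40.4 and 52.9 (adjusted p = 0.763), while Mki67 overlapped at 88.2, 97.3, 65.3 and 114.7.

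In T cells the adjusted p was 0.9998 for each of the 7 genes given whatever their p, Il17a, Il17f, Il22, Il23r, Foxp3, Ifng and Lag3. Il17a, the leading cytokine of Th17 cells, stood at 299.6, 352.6, 277.7 and 842.5 CPM (0.82 ± 0.43) and its relative Il17f at 38.1, 48.5, 41.7 and 112.2 (0.86 ± 0.40). Il23r, the receptor that sustains Th17 cells, stood at 14.8, 15.6, 13.7 and 24.7 (0.37 ± 0.27). In these genes mutant replicate 2 was high and mutant replicate 1 lay at or near the wildtype libraries, so the groups overlapped. Without mutant replicate 2 the log2 fold changes were −0.26 for Il17a, −0.08 for Il17f and −0.17 for Il23r. Without mutant replicate 1 Il17a was called higher (1.43, adjusted p = 0.000172), as was Il17f (1.43, adjusted p = 0.000719), in a fit where 1 library stands for the mutant group. Il22, which acts on epithelium, stood at 182.9, 189.1, 206 and 311.7 (0.50 ± 0.21). Both mutant libraries lay above the wildtype pair, mutant replicate 1 only just, and without the latter the log2 fold change of Il22 was 0.80. In barcodes of no rule Il22 stood at 343.4, 279.8, 458.9 and 151.2, above T cells in all but mutant replicate 2, and the groups overlapped. In fibroblasts it was lower in both mutant libraries (114.8, 90.1, 68.9 and 70.6).

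Of the 19 genes of the Th17 list 4 were higher and 1 lower in T cells without overlap, against 15% of all genes each way, 3 were higher at an unadjusted p under 0.05, against 2.53%, and the median was 0.26. The median was 0.02 without mutant replicate 2, 0.11 without wildtype replicate 1, 0.40 without mutant replicate 1 and 0.47 without wildtype replicate 2. Ccl20, the ligand of CCR6 on Th17 cells, stood at 10.3, 16.5, 20.2 and 75.3 (1.87 ± 0.53, adjusted p = 0.918), again with mutant replicate 2 far above the rest. Il21, a helper T cell cytokine, stood at 10.4, 14.7, 21.2 and 26.8 (0.95 ± 0.20, adjusted p = 0.638) and did not overlap. Ccr6 (11.7, 15.1, 13.5 and 15.5) and Ahr (143, 154.8, 129.4 and 160.2) overlapped. In mice after DSS, Il17a stood at 590.9 and 266.7 in wildtype and 1086 and 166.2 in mutant T cells, so the groups overlapped. For the difference between the untreated and the DSS effect in T cells, edgeR called 0 of 14925 genes (0%), and 350 (2.35%) had an unadjusted p under 0.05.

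Foxp3, the factor that defines regulatory T cells, stood at 43.1, 32.5, 32.3 and 28.5 (−0.31 ± 0.17). Lag3, an inhibitory receptor, stood at 84.9, 83.3, 94.1 and 128.8 (0.43 ± 0.18). The wildtype and mutant libraries of Lag3 did not overlap, and those of Foxp3 were separated by less than 1 CPM. Ifng, the Th1 cytokine, overlapped at 153.3, 207.6, 188.2 and 164.5 (−0.02 ± 0.16). Among the 16 Treg genes 6 were lower and 0 higher without overlap, against 15% of all genes each way, with a median of −0.10. Of the 12 Th1 and cytotoxic genes 4 were higher and 2 lower, against the same 15% each way, and the median was −0.03. Prf1, perforin, was at 2.02, 1.83, 3.62 and 3.45 (0.89 ± 0.25, adjusted p = 0.918), while Gzmk, a granzyme, was at 18.0, 13.8, 9.50 and 10.9 (−0.63 ± 0.19, adjusted p = 0.953). Of 12 genes of quiescence and homing 6 were higher and 2 lower without overlap, again against 15% each way. Klf2, which keeps T cells quiescent, stood at 248.5, 275.4, 344.8 and 295.8 (0.30 ± 0.12), and Tcf7, a factor of naive and memory T cells, at 114.6, 109.8, 140.8 and 142.4 (0.35).

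**Figure D4:**
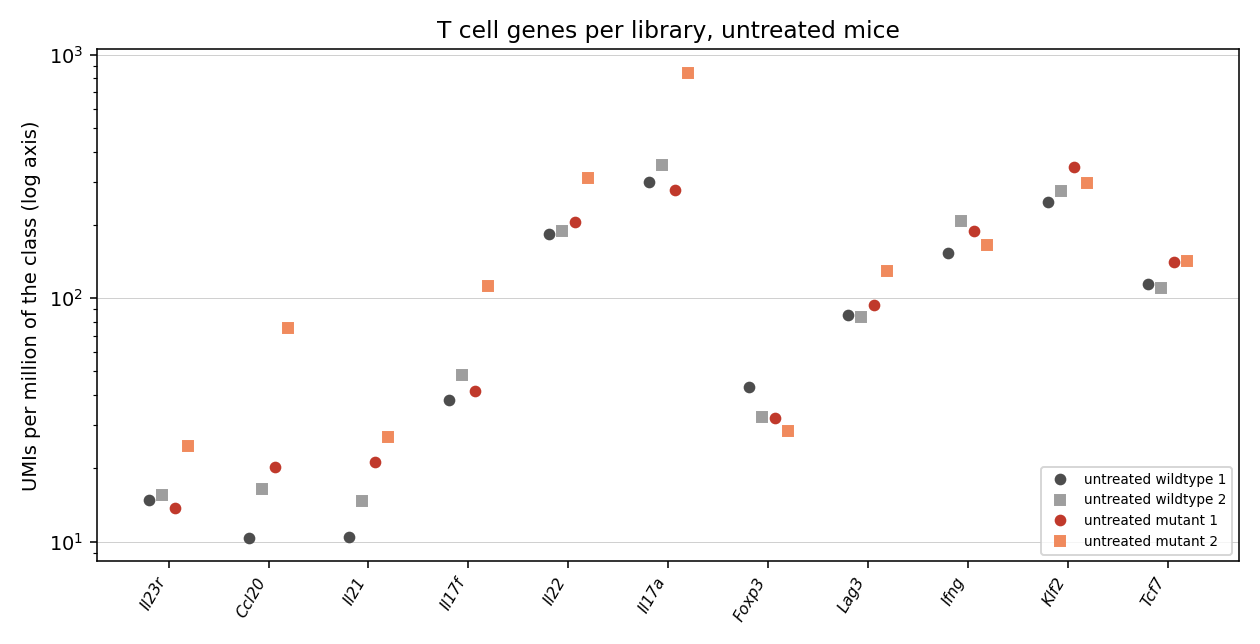
CPM of T cells (log axis) of 11 T cell genes in each untreated library. Il17a, Il17f, Il23r and Ccl20 are highest in mutant replicate 2 (orange squares), with mutant replicate 1 (red circles) near the wildtype libraries for all but Ccl20.

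Shares of T cells with at least 1 UMI of a gene were compared after each barcode was thinned to 1000 UMIs, which left out 543 and 156 wildtype and 97 and 102 mutant T cells. Il17a was found in 10.7% and 14.4% of wildtype and 8.33% and 20.8% of mutant T cells (15.9%, 21.9%, 12.6% and 26.3% before thinning). Fibroblasts are not a source of Il17a, and after thinning 6.21%, 5.86%, 2.78% and 7.11% of them held a UMI of it, the level that free RNA and mixed barcodes reach at this depth. The order of the libraries was the same in both classes for the lowest and the highest library. Median depth was 2061 to 2512.5 UMIs in T cells and 4562 to 5637 in fibroblasts. Foxp3 was found in 4.35% and 3.52% of wildtype and 3.32% and 2.78% of mutant T cells, and in at most 0.45% of fibroblasts. Cd4 was found in 21.1% and 19.99% against 17.4% and 17.4%, and Cd8a in at most 0.44% of T cells in any library. For Cd4 and Foxp3 the mutant libraries were lower without overlap, though for Foxp3 the 95% exact binomial intervals of wildtype replicate 2 (3.11% to 3.98%) and mutant replicate 1 (2.86% to 3.83%) overlapped. Before thinning the Foxp3 shares overlapped, at 8.65% and 7.28% against 7.57% and 6.09%. In fibroblasts Cd4 was found in 4.61% and 4.30% against 2.13% and 2.83%, also lower in the mutant libraries. On the authors' barcode list the groups overlapped for Foxp3 (3.23% and 3.83% against 4.21% and 2.80% of T cells). Every T cell barcode on that list holds a UMI of Cd4, so it says nothing of the Cd4 share. Ifng was found in 11.6% and 14.5% against 11.2% and 10.8%, with overlapping 95% exact binomial intervals for replicate 1 of each group (10.8% to 12.3% and 10.4% to 12.1%), and in 1.98% and 4.79% against 2.73% and 2.73% of fibroblasts. On the authors' list the groups overlapped for Ifng (13.1% and 16.8% against 13.2% and 12.9% of T cells), as did its CPM.

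No T cell gene was called by edgeR (DESeq2 called 25), so the genes of smallest p are given as values. Gprasp1, a sorting protein of G protein-coupled receptors, stood at 16.0, 18.1, 34.7 and 38.3 (1.12 ± 0.14, adjusted p = 0.539). Cacybp, a partner of the ubiquitin ligase SIAH and a member of the heat-shock list, stood at 111.9, 129.3, 222.7 and 197.6 (0.81). Hspe1, given above, and Hspd1 (248.3, 448.1, 904.3 and 1024, 1.49 ± 0.25), both of the same list, were also among these genes. Tespa1, which acts in T cell receptor signalling, stood at 18.2, 20.6, 33.3 and 32.4 (0.77). Inhba, activin A, stood at 8.71, 7.27, 3.34 and 3.67 (−1.17). Thbs1, thrombospondin, stood at 121.5, 115.8, 77.1 and 69.2 (−0.69) and Nrg1, neuregulin, at 12.2, 14.1, 7.48 and 5.77 (−0.98). Slc7a11, the cystine transporter, stood at 18.6, 18.1, 11.3 and 9.80 (−0.79). The groups did not overlap in any of these, which were chosen for a small p. After DSS the levels of Gprasp1 were 24.8 and 14.9 in wildtype and 15.9 and 17.5 in mutant T cells, and those of Tespa1 were 22.8 and 18.9 against 15.4 and 16.8. Inhba, Thbs1 and Nrg1 are genes of myeloid or stromal cells as well, and macrophage markers in T cells summed to between 580 and 895 CPM, lowest in mutant replicate 2. These genes and Slc7a11 stood higher in macrophages than in T cells and were lower in both mutant libraries there too. In macrophages Nrg1 stood at 106.8, 89.4, 37.6 and 54.6, and Slc7a11 at 175.3, 149.8, 97.8 and 119.9. The part of macrophage RNA in the T cell values was not tested.

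In fibroblasts edgeR called no gene (DESeq2 called 64), and genes of small p in each direction are given as values. At an unadjusted p under 0.05, 387 genes (2.84%) were higher and 806 (5.91%) lower in the mutant libraries. Spp1, osteopontin, stood at 1.03, 2.30, 7.88 and 11.3 (2.37 ± 0.36, adjusted p = 0.171). It had 9 and 28 UMIs in the wildtype fibroblasts. In macrophages Spp1 stood higher in each untreated library (11.3, 16.8, 21.6 and 17.8). The part of macrophage RNA in its fibroblast values was not tested. Mgp, an inhibitor of calcification in the matrix, stood at 1144, 1147, 1818 and 1886 (0.62 ± 0.11, adjusted p = 0.171). G0s2, an inhibitor of fat breakdown, stood at 46.6, 55.9, 90.4 and 112.6 (0.91), Cdh13, a cadherin, at 19.2, 18.9, 30.3 and 34.1 (0.68) and Adamtsl2, a matrix protein, at 3.87, 4.43, 9.74 and 8.97 (1.10). The groups did not overlap in any of these, and the wildtype replicates of Spp1 differed most from each other in proportion. Of the genes that were lower, Ccr2, a chemokine receptor, stood at 50.3, 42.2, 23.2 and 26.8 (−0.96). Gimap7, a GTPase of lymphocytes, stood at 28.1, 30.01, 17.2 and 16.7 (−0.84). P2ry10, a receptor of lymphocytes, stood at 51.2, 41.5, 24.8 and 26.5 (−0.92). Lmnb1, lamin B1 of the nuclear envelope, stood at 117.2, 110.3, 67.4 and 68.5 (−0.81). Each of these lower genes stood higher in T cells than in fibroblasts in every untreated library. In T cells Ccr2 stood at 202.3, 144.3, 130.6 and 111.2, and Lmnb1 at 439.3, 376, 335.3 and 361.8. The part of T cell RNA in the fibroblast values was not tested.

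Several gene lists had medians below 0 in the fibroblast sums. Of 10 Th1 and cytotoxic genes tested there 8 were lower without overlap, against 14% of all genes, and the median was −0.91. Of 15 Treg genes 10 were lower (median −0.44), and of 20 NF-kB and inflammatory cytokine genes 13 were lower (median −0.42), 10 of them at an unadjusted p under 0.05, against 5.91% of all genes. Ccl5, a chemokine of T cells, stood at 222.4, 282.4, 164.2 and 79.1 in fibroblasts (−1.11 ± 0.28, adjusted p = 0.263). The T cell markers in fibroblasts summed to 515, 543, 378 and 489 CPM, lower in the mutant libraries, and the macrophage markers to 613, 986, 752 and 661, which overlapped. The part of T cells caught with fibroblasts in these values was not tested. Of 22 matrix genes 2 did not overlap between the groups, against 42.4% of all genes, and the median was −0.03. Of 21 stromal niche ligand genes tested 5 were higher and 1 lower without overlap, against 28.4% and 14% of all genes, with a median of 0.03.

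**Figure D5:**
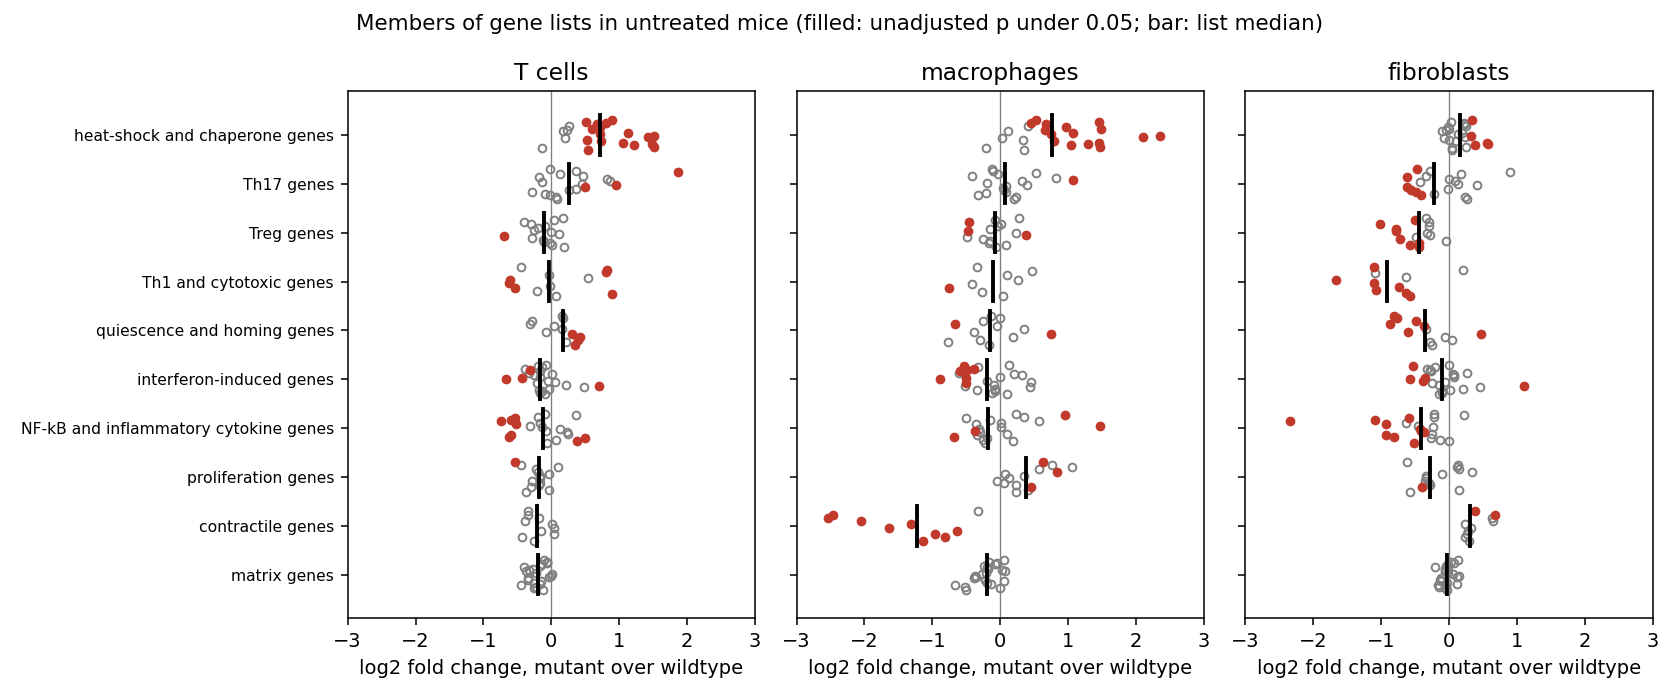
Log2 fold change, mutant over wildtype, of the tested members of 10 gene lists in each class, with filled points for an unadjusted p under 0.05 and a bar at the list's median. The heat-shock list lies to the right in T cells and macrophages (medians 0.72 and 0.77), the contractile list to the left in macrophages (−1.22), and the Th1 and cytotoxic list to the left in fibroblasts (−0.91).

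What the classes shared was counted over the 11696 genes tested in all 3. By edgeR 0 genes were called in the same direction in at least 2 classes (0%). At an unadjusted p under 0.05, 272 genes (2.33%) went the same way in at least 2 classes and 42 genes (0.359%) in all 3, 12 of them higher and 30 lower. Since barcodes that meet more than 1 rule enter more than 1 sum and free RNA enters all, this count does not come from separate cells. With barcodes of 1 rule only, 10 of the 12 and 23 of the 30 were tested in all 3 classes, and 1 and 9 of these had an unadjusted p under 0.05 in all 3 classes. In barcodes that met none of the rules, 7 of the 12 were higher and 24 of the 30 lower in both mutant libraries. Of all genes with any UMI there, 13% were higher and 10.6% lower. That set is not limited to the genes tested in all 3 classes, so the shares are not of like genes.

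Of the 12 shared genes that were higher, 5 were members of the heat-shock list, Hspa1a, Hspb1, Hspd1, Hspe1 and Ahsa1, the activator of HSP90. Hspa1l, the third gene of the Hspa1 cluster, was also among them, at no more than 15.4 CPM in any library and class. Klf2, a factor of quiescence and of shear response, differed by 0.30 in T cells, 0.75 in macrophages and 0.48 in fibroblasts. Its macrophage levels were 203.4, 193.3, 390.9 and 273.9 (adjusted p = 0.251), apart by group. Klf2 had an unadjusted p under 0.05 by edgeR in 1 class with barcodes of 1 rule only. Of the heat-shock members, Hspb1 had such a p there in all 3 classes. Hspa1a, Hspd1, Hspe1 and Ahsa1 had it there in 2 classes each. Mgp, a marker of the fibroblast list, differed by 0.55, 0.66 and 0.62. Its level was 1144, 1147, 1818 and 1886 in fibroblasts. In T cells its groups overlapped (135.7, 178.9, 283.8 and 175), and in macrophages it stood at 74.6, 87.9, 165.9 and 88.3. It also overlapped in barcodes of no rule. With barcodes of 1 rule only, Mgp had an unadjusted p under 0.05 in 1 class. The part of fibroblast RNA in the other classes was not tested.

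The 30 that were lower included Il1rn, Thbs1, Ptgs2 and Slc7a11, and also genes known from particular cell types, such as Camk4, Il12rb2, Sox9 and Iglc2. Il1rn, the decoy ligand of the interleukin 1 receptor, stood at 647.2, 613.5, 319.7 and 481.3 in macrophages (−0.64 ± 0.20, adjusted p = 0.536), and its log2 fold change was −0.70 in T cells and −0.89 in fibroblasts. Thbs1 stood at 886.6, 801, 374.1 and 644.3 in macrophages (−0.72 ± 0.22, adjusted p = 0.546) and at 553.4, 346.4, 312.6 and 310.8 in fibroblasts (−0.60). For both genes mutant replicate 1 was the lowest in macrophages. Ptgs2 stood at 369.5, 260.6, 240.9 and 136 in fibroblasts (−0.81 ± 0.26, adjusted p = 0.389) and Slc7a11 at 175.3, 149.8, 97.8 and 119.9 in macrophages (−0.57 ± 0.17, adjusted p = 0.535). Il1rn, Thbs1, Ptgs2 and Il12rb2 were among the 9 that had an unadjusted p under 0.05 in all 3 classes with barcodes of 1 rule only. Slc7a11, Camk4, Sox9 and Iglc2 were not.

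Iigp1 and Igtp, GTPases induced by interferon gamma, were also among the 30. Iigp1 stood at 134.8, 128.1, 101.9 and 63.2 in T cells (−0.67 ± 0.19, adjusted p = 0.918), at 90.6, 114.5, 67.5 and 42.1 in macrophages (−0.88 ± 0.21, adjusted p = 0.251) and at 584, 475, 442.8 and 299.4 in fibroblasts (−0.58 ± 0.19, adjusted p = 0.397). In each class mutant replicate 2 was the lowest and mutant replicate 1 lay between it and the wildtype pair. Of the 23 interferon-induced genes 10 were lower and 3 higher without overlap in T cells, against 15% of all genes each way. In macrophages 11 were lower and 2 higher, against 16.9% and 17.2%, and in fibroblasts 4 and 6, against 14% and 28.4%. The medians were −0.17, −0.19 and −0.11. When 1 library was left out they ranged from −0.18 to −0.10, from −0.28 to −0.10 and from −0.22 to −0.05. The CPM of Ifng in T cells overlapped, as given above. The thinned share of T cells with Ifng was lower in both mutant libraries (11.6% and 14.5% against 11.2% and 10.8%). On the authors' list that share overlapped. In fibroblasts the CPM of Ifng was lower in both mutant libraries (48.6, 83.5, 42.1 and 40.9), while its thinned share overlapped. Its CPM was also lower in both in macrophages and in barcodes of no rule (36.7, 24.8, 10.4 and 10.1). The part of Ifng in the levels of the interferon-induced genes was not tested. Cholesterol synthesis genes had no member at an unadjusted p under 0.05 in any class, and 2, 1 and 0 of the 16 did not overlap in T cells, macrophages and fibroblasts, against 30%, 34.1% and 42.4% of all genes.

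The untreated effect was set against that after DSS by a test of the difference over all 8 libraries. In macrophages 1 of 11508 genes was called by edgeR (0.00869%), Iglc1. After DSS it stood at 13.9 and 47.5 in wildtype and 886 and 769.9 in mutant macrophages, a log2 fold change of 4.71, the opposite of the untreated direction. The difference, untreated minus DSS, was −6.82 ± 0.61 (adjusted p = 0.0149). The call was lost without any 1 of the untreated libraries, with an adjusted p of 0.144 without mutant replicate 1, 0.259 without mutant replicate 2, 0.161 without wildtype replicate 1 and 0.149 without wildtype replicate 2. In the other classes the untreated levels of Iglc1 overlapped, at 524, 494, 111 and 805 in T cells and 59.6, 295, 24.6 and 317 in fibroblasts. For the heat-shock list in macrophages the median difference was 0.94, with 13 of 22 members at an unadjusted p under 0.05, against 3.11% of all genes, and none called. Bag3 after DSS stood at 156.8 and 118 in wildtype and 123.5 and 162.2 in mutant macrophages, so the groups overlapped (difference 1.43, adjusted p = 0.9998). In T cells the median difference was 0.63 and in fibroblasts 0.06. In fibroblasts edgeR called 0 of 13915 genes (0%), and 615 (4.42%) had an unadjusted p under 0.05. Ccr2, lower in the untreated mutant fibroblasts, was higher in both mutant libraries after DSS (46.3 and 36.4 against 58.2 and 63.3, difference −1.50, adjusted p = 0.556).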

How the data were processed

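The deposited files hold raw UMI counts, whole numbers per gene and barcode, in 1 table for each library. Cell Ranger 3.1.0, Seurat 4.0.1 and mm10 are named per the submitters' processing notes, without roles. The counts were used as deposited, and a deposited list of 31053 symbols gave the row order, checked against identifiers (98.5% agree). Every barcode has at least 500 UMIs, and no doublet caller was run. Barcodes were filtered and classed as the report states, their UMIs summed per library and class, and tested with edgeR 4.0.16 (R 4.3.3; quasi-likelihood, TMM, filterByExpr) over the 4 untreated libraries without a replicate block. The series design text gives the contrast. P-values measure the spread between 2 libraries per group, and the depth is given by the summed UMIs, 4271619 to 25729244 per library and class. Alternatives were DESeq2 1.42.0, other scaling, no filter, all 8 libraries, other barcode rules, a block and leaving out each library.

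Named genes were those called with a mean of at least 5 CPM in 1 group and no overlap, up to 10 each way, filled to 5 by smallest p where fewer were called. To these came called list members, the smallest p of each interaction, and 7 fixed T cell genes. Some genes of these rules and lists are not reported here. Other list members and shared genes named in the text were picked after their values were seen. The members, lists and tests were chosen with earlier results of these data known. Promoters are from RefSeq GRCm38.p6.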

Additional observations from a re-analysis of the deposited data

Results flagged for a closer look

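The log2 fold change of Iglc1 in the macrophage sums, mutant over wildtype, differed between untreated and DSS mice by −6.82, with opposite directions in the 2 conditions. This call was lost without any 1 of the untreated libraries. With barcodes of 1 rule only, the untreated groups overlapped for Iglc1 (555.1, 84.9, 133.2 and 79.1). The part of plasma cell RNA was not tested. Between macrophages and fibroblasts the log2 fold change differed for Dnajb1 by −1.52 and for Chka by −1.16, by edgeR's interaction test. Both of these calls were lost when either wildtype library was left out. Outside the classes compared, Svs5 reached 6896 CPM and Svs4 2306 CPM in barcodes of mutant replicate 1 that met none of the rules, where the other untreated libraries had at most 3.3 CPM of Svs5. In the same barcodes 2.08% of UMIs were of the heat-shock list in mutant replicate 1, above both wildtype libraries (0.938% and 1.27%).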

How the results depend on the processing

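The titles carry no shared replicate numbers; pairing libraries by neighbouring animal numbers is a guess, and their deviations correlated at −0.0662 in T cells, 0.0324 in macrophages and 0.15 in fibroblasts. With that pairing as a replicate block edgeR called 51 genes in T cells, 97 in macrophages and 409 in fibroblasts, against 0, 14 and 0 without it, and 12 of the 22 heat-shock genes in T cells. DESeq2 called 25, 25 and 64. No filter on low counts gave 160 in macrophages, 424 in fibroblasts, 89 and 190 for the treatment difference in macrophages and fibroblasts, and 123, 186 and 239 for the differences of T cells from macrophages, of T cells from fibroblasts and of macrophages from fibroblasts. All 8 libraries gave 0 in macrophages and the stricter UMI rules 8. Barcodes of 1 rule gave 4 in fibroblasts, and 25 and 5 for the differences of T cells and of macrophages from fibroblasts. The cause of these moves was not tested. Leaving out 1 library gave 0 to 84 calls in T cells, 96 to 201 in macrophages (all 14 each time), 1 to 97 in fibroblasts, 0 to 7 for the treatment difference in macrophages, and 0 to 8, 0 to 3 and 0 to 19 for the differences between classes, in the order above; the lone library is then assumed to vary like the other groups.

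In percentage points, mutant minus wildtype, the T cell share was −2.18, or 3.69 under the stricter rule (−5.70 to 1.34 leaving out 1 library), the macrophage share −2.63 (−5.69 to 0.419) and the fibroblast share −0.109 (−4.48 to 4.26). The median heat-shock share per barcode differed by 0.987 in T cells (0.781 to 1.19), 1.25 in macrophages (1.04 to 1.46) and 0.243 in fibroblasts (0.0774 to 0.409), where barcodes of 1 rule gave −0.0146. The thinned T cell shares differed by −3.12 for Cd4 (−3.67 to −2.57), 0.154 for Cd8a (0.0408 to 0.267), −0.885 for Foxp3 (−1.30 to −0.472), 2.00 for Il17a (−4.21 to 8.22), −2.02 for Ifng (−3.46 to −0.578) and 0.0487 for Trdc (−0.0562 to 0.154). Without thinning they were −1.68 for Cd4, 0.292 for Cd8a and 0.298 for Trdc. On the authors' list they were −1.25 for Cd4 (no alternative, since every barcode listed holds Cd4), −0.121 for Cd8a and −0.0226 for Foxp3. For Il17a the mean share without thinning was 18.9% in wildtype and 19.5% in mutant T cells. On the authors' list, after thinning, its mean share was 15.0% and 19.5%. Leaving out 1 library gave log2 fold changes in T cells of −0.26 to 1.43 for Il17a, −0.081 to 1.43 for Il17f, −0.17 to 0.77 for Il23r and −0.22 to 0.19 for Ifng. Ifng was 0.092 on the authors' list, 0.00065 under the stricter rule and 0.04 without mutant replicate 2. Of the values for single genes, 530 kept direction and side of the threshold, 94 passed it only in the alternative, 35 only in the main form and 7 changed sign.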
